A study of Arabidopsis thaliana with 6 samples.

Results

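The mitochondrial genome genes of *Arabidopsis thaliana* are described here in anther RNA, as every gene whose identifier begins with ATMG. There were 152 such genes among the 32833 genes of the expression table, and they were chosen by identifier alone, without use of their levels. RNA was sequenced from anthers at stages 9 to 13 of the mutant *ice1-2* and of the wild type Col-0, with 3 libraries per genotype labelled A, B and C. The study gives these as flower stages and the labels as anther stages. The libraries labelled *ice1-2* came from homozygous plants in the Col-0 background, in which T-DNA interrupts the third exon of *ICE1*, a transcription factor of the cold response and of stomatal development. It is 1 insertion line, so effects of the gene and of that line cannot be told apart. Both genotypes were grown in a greenhouse under 16 hours of light at 22 °C. Expression levels are given as FPKM, fragment counts scaled to transcript length and to the mapped reads of a library. That scaling does not correct for how RNA was selected or how reads with several matches were counted, which limits comparison between genes. The sources used here do not say if each library had its own plants, so p-values measure the spread between these libraries, which may be technical.

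Plant mitochondria keep a small genome of their own, inherited apart from the nucleus. It encodes the ribosomal RNAs and some of the proteins of the mitochondrial ribosome, core subunits of the respiratory complexes and of the ATP synthase, and part of the machinery that attaches heme to c-type cytochromes. Most other mitochondrial proteins, including most subunits of the same complexes, are encoded in the nucleus and imported. Many mitochondrial transcripts are edited, with particular cytidines changed to uridines before translation. Tapetum and pollen are rich in mitochondria, and cytoplasmic male sterility in crops is caused by mitochondrial genes. In *Arabidopsis* a large piece of the mitochondrial genome has also been inserted into chromosome 2, where many of the same genes occur again as nuclear copies.

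The reference names an ATMG identifier only through the note of a chromosome 2 gene that resembles it. Of the 152 identifiers, 53 were named in such a note, 24 of them with a function and 29 as unknown proteins or pseudogenes, and the other 99 are given by identifier alone. The annotated coding sequences of the mitochondrial genome were set beside those of the chromosome 2 copies. In 11 genes the mitochondrial sequence was found whole, with the same letters, in the copy. That of *atp9*, with 225 bases, lies within a longer annotated coding sequence of 258 bases. Of the 31 mitochondrial protein-coding genes annotated in the reference, 13 had each of their 100-base windows on chromosome 2 as well, and 5 had none. A read of 100 bases that lies within such a stretch cannot be assigned to the mitochondrion or to chromosome 2 by sequence, unless editing has changed it. The sequences of *atp9*, *nad3* and *rps12* are shown from NCBI RefSeq because they belong to the highest annotated genes and are identical in both places. Capital letters are annotated editing sites, without those annotated as minor. The first lies on the minus strand at chrMT:270961-271185 in TAIR10.1, and is shown whole. The next covers the first 300 of 357 bases at chrMT:288044-288343, and the last covers the first 300 of 378 bases at chrMT:288446-288745, both on the plus strand.
atp9: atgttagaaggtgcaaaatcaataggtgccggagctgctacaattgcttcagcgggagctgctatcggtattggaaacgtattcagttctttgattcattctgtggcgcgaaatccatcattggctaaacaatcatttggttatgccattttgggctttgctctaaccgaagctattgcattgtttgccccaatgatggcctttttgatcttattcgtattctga
nad3: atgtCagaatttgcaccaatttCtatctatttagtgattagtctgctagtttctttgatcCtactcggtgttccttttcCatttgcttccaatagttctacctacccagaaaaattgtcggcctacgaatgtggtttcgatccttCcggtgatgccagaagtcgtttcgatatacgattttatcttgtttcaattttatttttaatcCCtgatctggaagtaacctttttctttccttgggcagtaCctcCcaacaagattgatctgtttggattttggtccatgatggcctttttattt
rps12: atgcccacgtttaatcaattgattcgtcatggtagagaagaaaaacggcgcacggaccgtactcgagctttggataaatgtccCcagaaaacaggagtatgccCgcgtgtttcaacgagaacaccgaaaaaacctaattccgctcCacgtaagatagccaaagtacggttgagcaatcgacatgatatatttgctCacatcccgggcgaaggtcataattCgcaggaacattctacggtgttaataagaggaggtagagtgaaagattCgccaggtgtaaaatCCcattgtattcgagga
The stretch of *nad3* held 9 such editing sites and that of *rps12* held 8, and none was annotated in *atp9*. Sites annotated as minor, 1 in the whole of *nad3* and 4 in the whole of *rps12*, are not in capitals. A missing annotation does not show that a transcript is unedited. The 2 genes *nad3* and *rps12* are neighbours, with 45 bases between them. At these capital letters an edited transcript would differ from both genomic copies.

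*ICE1* itself had 12.9, 15.4 and 21.5 FPKM in the libraries labelled *ice1-2*, against 12.7, 9.25 and 14.0 FPKM in the Col-0 libraries (log2 fold change 0.44, SE 0.24, limma adjusted p = 0.323). The mutant libraries did not have less of it, and since a gene-wide FPKM value does not show whether reads span the insertion, it checks no label. The libraries labelled *ice1-2* are called *ice1-2* A, B and C in what follows, and each direction given rests on their labels. The 6 libraries had FPKM sums of 613304 to 664968 and 23242 to 25362 genes above 0. All 8 pollen marker genes were present, with sums of 6267 to 10636 FPKM in *ice1-2* and 10493 to 13154 FPKM in Col-0. None of the 8 estimates lay above 0, where 65.2% of all genes tested did, and their median log2 fold change was -0.48. None of the 8 reached an adjusted p under 0.05 in limma. At an unadjusted p under 0.05 there were 3, all lower in *ice1-2*, where 5.26% of all genes tested were lower by that measure. The 9 tapetum marker genes summed to 37.4 to 116 FPKM in *ice1-2* and 24.7 to 166 FPKM in Col-0. Of these 6 were tested, and none reached an adjusted or an unadjusted p under 0.05 in limma. The estimates of 5 of these 6 lay above 0, and the median log2 fold change of the 6 was 0.43. *DYT1*, *MS1* and *MYB80* were not among the 6. *DYT1* was near 0 in each library, listed at 0 in all 3 *ice1-2* libraries, against 0.0908, 0.199 and 0.0666 FPKM in Col-0 A, B and C. *MS1* had 0, 1.30 and 0.0764 FPKM in *ice1-2*, against 0.735, 0.0494 and 0.0768 FPKM in Col-0. *MYB80* had 0, 0.0979 and 0 FPKM in *ice1-2*, against 0.172, 0 and 0 FPKM in Col-0. The part of pollen or tapetum content in the mitochondrial levels was not tested.

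FPKM values of the mitochondrial genes were low apart from 3 identifiers. How RNA was selected and how reads with several matches were counted is not given, so low FPKM need not mean few transcripts. The part of either in these values was not tested. ATMG00020, ATMG00030 and ATMG01390 were the only genes with a mean over 100 FPKM, and together they held between 82.8% and 93.9% of the mitochondrial FPKM sum of each library. A further 2 genes had a mean over 10 FPKM, 35 lay between 1 and 10 FPKM, and 112 had a mean below 1 FPKM. A total of 76 genes were above 0 in all 6 libraries, 75 in some libraries, and ATMG00770 was listed at 0 in each of them. The reference annotates the mitochondrial ribosomal RNA genes *rrn26*, *rrn18* and *rrn5*, but does not pair them with these identifiers. The gene lists used here place ATMG00020, ATMG01380 and ATMG01390 in a ribosomal RNA group, which could not be checked in the reference.

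ATMG00020 had the highest mean level, with 1753, 402 and 572 FPKM in *ice1-2* A, B and C, against 98.9, 1011 and 373 FPKM in Col-0 A, B and C. ATMG00030 had 1701, 309 and 463 FPKM in *ice1-2*, against 215, 728 and 192 FPKM in Col-0. ATMG01390 had 1655, 347 and 367 FPKM in *ice1-2*, against 181, 509.8 and 184 FPKM in Col-0. In all 3 genes *ice1-2* A was the highest library and Col-0 B the next, and the genotypes overlapped. Their means were 909 ± 736 FPKM in *ice1-2* and 494 ± 468 FPKM in Col-0 for ATMG00020 (SD, n = 3 each), so the spread within a genotype was larger than the difference between them.

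**Figure D1:**
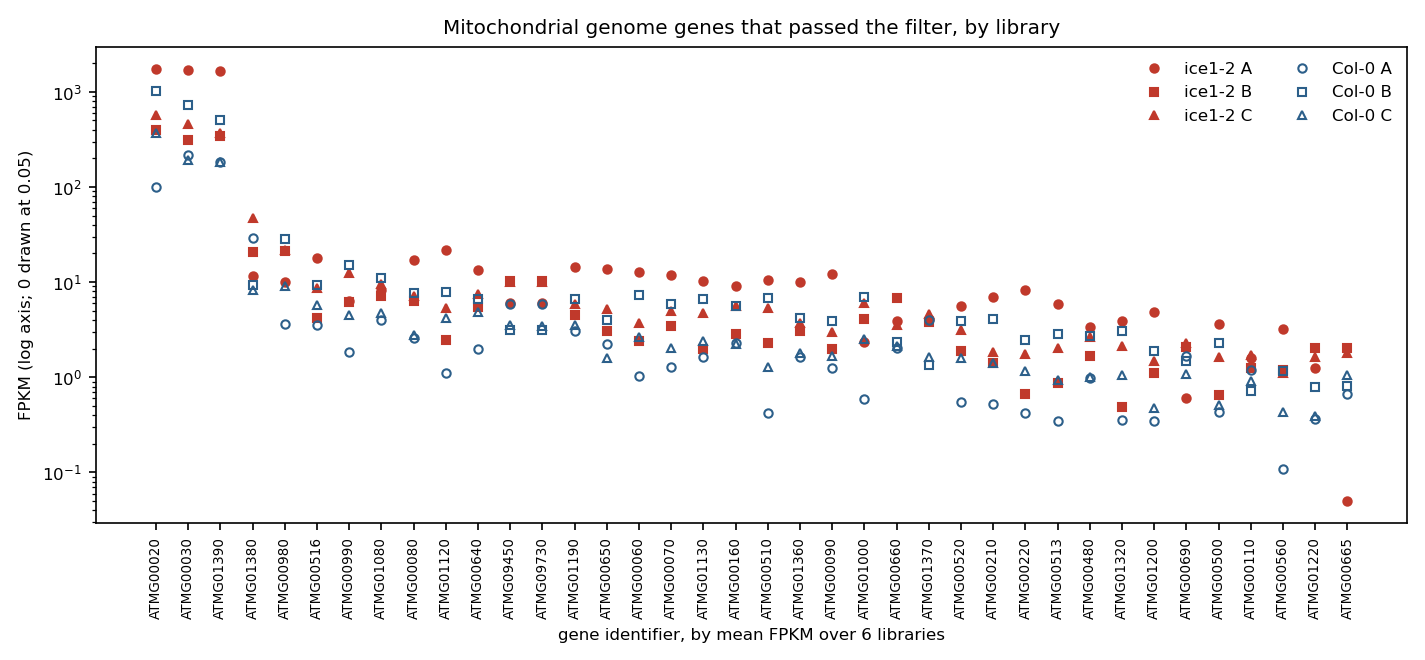
FPKM (log axis) of the 38 mitochondrial genome genes that passed the filter, by identifier in the order of their mean, with filled symbols for the 3 *ice1-2* libraries and open symbols for the 3 Col-0 libraries (circle A, square B, triangle C). *ice1-2* A was the highest library in 25 of the 38 genes and Col-0 A the lowest in 28.

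The mitochondrial genes together made up 0.819%, 0.189% and 0.264% of the FPKM sum in *ice1-2* A, B and C, against 0.0967%, 0.387% and 0.139% in Col-0. The geometric mean of the share was 1.99 times as high in *ice1-2* as in Col-0, but Col-0 B lay above 2 of the *ice1-2* libraries (two-sided exact permutation test, p = 0.4, where 3 against 3 libraries cannot go below 0.1). The log2 difference of 0.99 became 0.37 without *ice1-2* A, 0.57 when Col-0 A was left out and 1.57 when Col-0 B was. Without the 3 highest identifiers the mitochondrial sum was 334, 178 and 252 FPKM in *ice1-2*, against 103, 223 and 101 FPKM in Col-0 (exact permutation p = 0.2). In bulk anther RNA a change in the number of cells of a type and a change in RNA per cell cannot be told apart.

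Other RNA moved between the libraries with the mitochondrial share. The 4 nuclear ribosomal RNA genes held 7.10%, 1.07% and 2.08% of the FPKM sum in *ice1-2* A, B and C, against 0.461%, 2.22% and 0.912% in Col-0. This was the same order of the 6 libraries as for the mitochondrial share. The 133 plastid genome genes held 2.01%, 0.351% and 0.351% in *ice1-2*, against 0.0517%, 0.384% and 0.148% in Col-0. Divided by the nuclear ribosomal RNA sum, the mitochondrial sum was 0.115, 0.178 and 0.127 in *ice1-2*, against 0.210, 0.175 and 0.152 in Col-0. On that scale the direction turned round, with the geometric mean in *ice1-2* 0.776 times that in Col-0 (exact permutation p = 0.3). The part of ribosomal RNA content in the mitochondrial levels was not tested.

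The mitochondrial sum was also set against the plastid sum, the other organelle genome of the cell. The ratio was 0.408, 0.540 and 0.753 in *ice1-2* A, B and C, against 1.87, 1.01 and 0.934 in Col-0. The genotypes did not overlap, and the ratio was lower in each *ice1-2* library than in any Col-0 library, with means of 0.567 ± 0.174 in *ice1-2* and 1.27 ± 0.520 in Col-0 (SD, n = 3 each). Without 1 library the log2 difference ranged from -1.36 to -0.82. The exact permutation p was 0.1, the smallest this design can give, and 0.2 after Benjamini-Hochberg adjustment over the 2 ratios. Without the 3 highest mitochondrial identifiers the ratios were 0.0250, 0.0779 and 0.115 in *ice1-2*, against 0.323, 0.0909 and 0.111 in Col-0, and the genotypes overlapped. The sum of 8 green tissue marker genes, which encode nuclear photosynthesis proteins, ranged from 2228 to 3824 FPKM in *ice1-2* and from 1296 to 1556 FPKM in Col-0. Of the 7 of them that passed the filter, 3 rose in *ice1-2* at an adjusted p under 0.05 in limma and none fell. Over all genes tested, 1.62% were higher and 0.27% lower at that limit. *LHB1B2*, which did not pass the filter, was listed at 0 in 4 of the 6 libraries. The part of green tissue in the ratio was not tested.

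**Figure D2:**
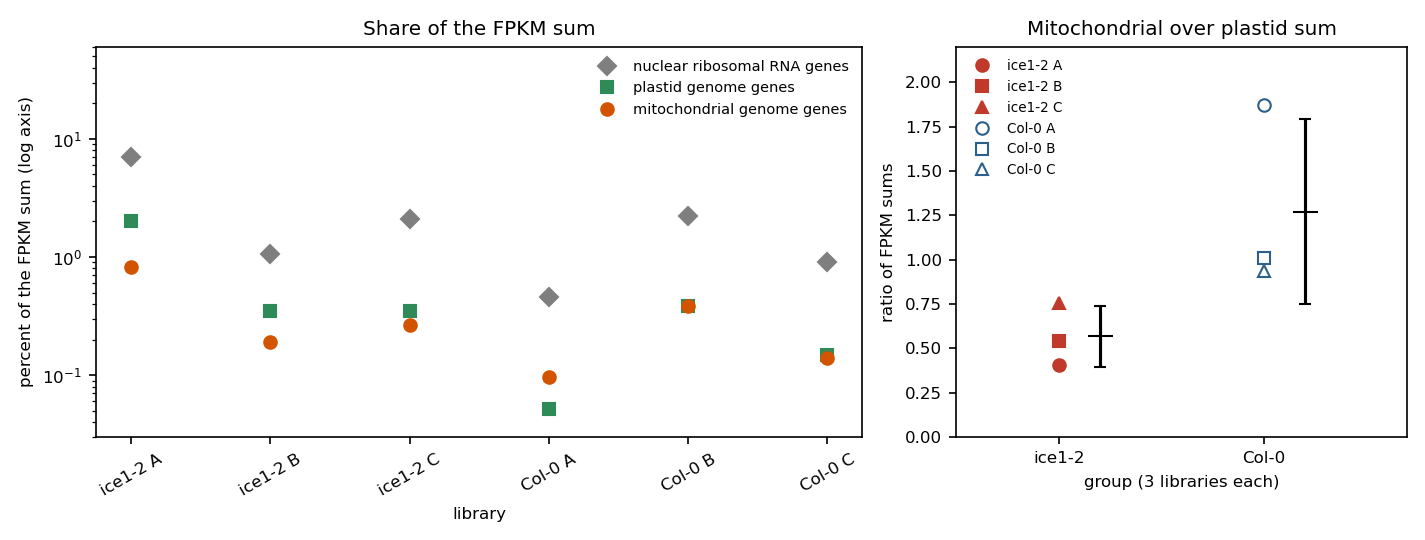
Left, percent of the FPKM sum (log axis) held by nuclear ribosomal RNA genes, plastid genome genes and mitochondrial genome genes in each library. Right, ratio of the mitochondrial to the plastid FPKM sum in the 3 *ice1-2* and the 3 Col-0 libraries, with the mean and SD as bars beside the points, where all *ice1-2* points lie below the Col-0 points.

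Genotypes were compared gene by gene with limma on log2(FPKM + 0.5) over the 18858 genes that reached 1 FPKM in at least 3 libraries. Only 38 of the 152 mitochondrial genes passed this filter, and 114 did not. None of the 38 was called at an absolute log2 fold change over 1 and a Benjamini-Hochberg adjusted p under 0.05, where 1.78% of all genes tested were called, 1.54% as higher and 0.233% as lower. At an adjusted p under 0.05 alone the count was also 0, against 1.62% of all genes tested as higher and 0.27% as lower. At an unadjusted p under 0.05 there were 8 of the 38, all higher in *ice1-2*, where 16.2% of all genes tested were higher and 5.26% lower by that measure. Leaving out *ice1-2* A brought that count to 4 of 35, where 20.6% of all genes then tested were higher. Leaving out *ice1-2* B brought it to 16 of 36 (11.2% of all genes) and leaving out Col-0 B to 23 of 36 (10.6% of all genes). The estimates of all 38 lay above 0, between 0.07 and 1.29 on the log2 scale, where 65.2% of all genes tested lay above 0. The median was 0.81 over the mitochondrial genes and 0.15 over all genes tested. With median-ratio scaling, which moved the median of all genes to -0.02, it was 0.67, and 37 of the 39 genes then tested lay above 0. The 55 plastid genome genes tested had a median of 1.03. The 38 mitochondrial genes share the same libraries, so their common sign is no count of independent results. Their adjusted p-values in limma ranged from 0.0812 to 0.946. The lowest was that of ATMG01220, which passed the filter through its *ice1-2* libraries alone. For 37 of the 38 the 95% interval reached a log2 fold change of 1, so these libraries do not bound the change below that size. Library quality weights gave 4 calls in limma (ATMG00660, ATMG01220, ATMG09450 and ATMG09730), where 4.26% of all genes were called. Leaving out Col-0 A gave 3 (ATMG01370, ATMG09450 and ATMG09730), where 3.38% of all genes were called.

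**Figure D3:**
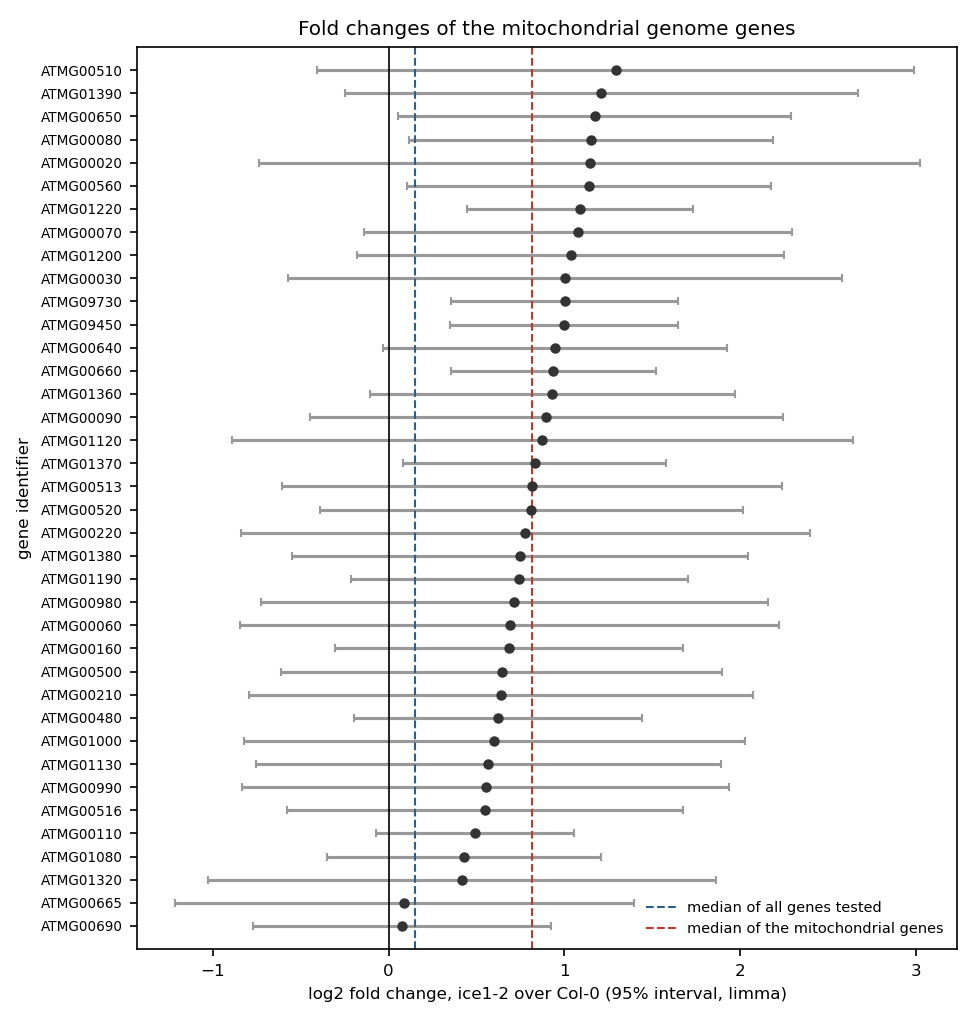
Log2 fold change of *ice1-2* over Col-0 with its 95% interval from limma for the 38 mitochondrial genome genes that passed the filter. All points lie above 0, and the median of the mitochondrial genes (0.81) lies above that of all genes tested (0.15), but most intervals include 0.

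The spread between libraries was wide in these genes. The SD of log2(FPKM + 0.5) over the 6 libraries had a median of 0.93 over the 38 mitochondrial genes and of 0.32 over all genes tested. The highest library was 2.41 to 29.4 times the lowest, with a median of 8.08, in the 37 genes that were above 0 in each library. Col-0 B lay above both *ice1-2* B and *ice1-2* C in 25 of the 38 genes. The most common order, in 13 genes, was from low to high Col-0 A, Col-0 C, *ice1-2* B, *ice1-2* C, Col-0 B and *ice1-2* A.

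Among the genes of the respiratory chain, ATMG00990, annotated as NADH dehydrogenase 3 of complex I, had 6.28, 6.13 and 12.6 FPKM in *ice1-2* A, B and C, against 1.86, 15.1 and 4.56 FPKM in Col-0 A, B and C. Its highest and its lowest library were both Col-0, and the fold change was 0.55 on the log2 scale (SE 0.61, limma adjusted p = 0.629). ATMG01320, annotated as NADH dehydrogenase 2B, had 3.86, 0.487 and 2.15 FPKM in *ice1-2*, against 0.353, 3.10 and 1.07 FPKM in Col-0. Complex I passes electrons from NADH to ubiquinone. ATMG00220, annotated as apocytochrome b of complex III, had 8.29, 0.660 and 1.76 FPKM in *ice1-2*, against 0.417, 2.48 and 1.17 FPKM in Col-0. Here *ice1-2* A stood far above the other 5 libraries, and the fold change of 0.78 (SE 0.71, limma adjusted p = 0.556) became -0.03 without it. ATMG00730, annotated as subunit 3 of cytochrome c oxidase, which hands electrons to oxygen, did not pass the filter, with 3.07, 0.482 and 0.796 FPKM in *ice1-2*, against 0.214, 1.02 and 0.176 FPKM in Col-0.

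The ATP synthase makes ATP from the proton gradient that the chain builds. ATMG01190, annotated as its subunit 1, had 14.4, 4.57 and 5.94 FPKM in *ice1-2* A, B and C, against 3.09, 6.64 and 3.54 FPKM in Col-0 A, B and C. ATMG01080, annotated as subunit 9, the ring of the membrane part, had 8.18, 7.10 and 9.59 FPKM in *ice1-2*, against 4.04, 11.1 and 4.69 FPKM in Col-0. ATMG01080 varied the least of the annotated genes that passed, with a highest library 2.75 times the lowest. ATMG00480, annotated as subunit 8, had 3.38, 1.66 and 2.64 FPKM in *ice1-2*, against 0.994, 2.69 and 1.02 FPKM in Col-0. In all 3 genes Col-0 B lay within or above the *ice1-2* range, and the limma adjusted p-values were 0.338 for ATMG01190, 0.50 for ATMG01080 and 0.349 for ATMG00480. ATMG00410, annotated as subunit 6, stayed below the filter with 2.54, 0.415 and 0.839 FPKM in *ice1-2*, against 0.394, 0.904 and 0.425 FPKM in Col-0.

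Of the proteins of the mitochondrial ribosome, ATMG00980, annotated as ribosomal protein S12, was the highest annotated gene. It had 10.04, 21.4 and 21.6 FPKM in *ice1-2* A, B and C, against 3.61, 28.7 and 9.06 FPKM in Col-0 A, B and C. Its highest and its lowest library were again both Col-0 (fold change 0.72, SE 0.63, limma adjusted p = 0.543). ATMG00210, annotated as ribosomal protein L5, had 6.92, 1.42 and 1.87 FPKM in *ice1-2*, against 0.522, 4.06 and 1.41 FPKM in Col-0. ATMG00560, whose chromosome 2 copy best matched the ribosomal protein gene *rpl2*, had 3.23, 1.18 and 1.12 FPKM in *ice1-2*, against 0.110, 1.16 and 0.435 FPKM in Col-0. It had the widest range of the 37 genes above 0 in each library, with a highest library 29.4 times the lowest. ATMG00290 and ATMG01270, annotated as ribosomal proteins S4 and S7, stayed below the filter, with means over the 6 libraries of 0.784 and 0.442 FPKM. The 3 annotated genes of cytochrome c maturation (ATMG00180, ATMG00900 and ATMG00960) did so as well, with means of 0.945, 0.189 and 0.418 FPKM.

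Summed by role over the listed genes that the reference annotates, no group separated the genotypes. ATMG01090, ATMG01280 and ATMG00590, annotated as ATP synthase 9, cytochrome c oxidase subunit II-like and cytochrome b/b6, were not on the lists and not summed. They lay below the filter, and in each of them every *ice1-2* library was above every Col-0 library. The ATP synthase genes (4 genes) summed to 28.5, 13.7 and 19.0 FPKM in *ice1-2* A, B and C, against 8.52, 21.4 and 9.67 FPKM in Col-0 A, B and C. The ribosomal protein genes (5 genes) summed to 22.9, 24.8 and 25.7 FPKM in *ice1-2*, against 4.89, 35.2 and 11.7 FPKM in Col-0. The 3 *ice1-2* libraries were close together here (24.5 ± 1.43 FPKM, SD, n = 3), while the Col-0 libraries reached from below to above them (17.2 ± 15.9 FPKM, SD, n = 3). The other groups held 3 genes each for complex I and cytochrome c maturation, and 1 each for complex III and complex IV. No sum stands for a whole complex. Over the 6 role groups the exact permutation p-values were 0.3 to 0.6, and each was 0.6 after Benjamini-Hochberg adjustment.

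Another order of the libraries was found in 13 of the 38 genes, in which *ice1-2* A was not the highest library. In 4 of them (ATMG00980, ATMG00990, ATMG01000 and ATMG01080) Col-0 B was the highest. ATMG00980 and ATMG00990 carry the names of the neighbours *rps12* and *nad3*, whose sequences are given above. The ratio of ATMG00980 to ATMG00990 was 1.60, 3.49 and 1.71 in *ice1-2*, against 1.94, 1.91 and 1.98 in Col-0. Over the Col-0 libraries this ratio hardly moved, although the level of each gene differed several-fold between them. ATMG01000, which the reference does not name, had 2.33, 4.14 and 6.03 FPKM in *ice1-2*, against 0.595, 6.91 and 2.52 FPKM in Col-0.

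In the other 9 of these genes the highest library was *ice1-2* B or *ice1-2* C. ATMG01380, the fourth highest gene by mean, had 11.6, 20.5 and 47.4 FPKM in *ice1-2* A, B and C, against 28.8, 9.40 and 8.31 FPKM in Col-0 A, B and C. Col-0 A, the lowest library for most mitochondrial genes, was the one after its highest. ATMG01370 and ATMG00690 are named here after their values were seen. ATMG01370 had 4.06, 3.84 and 4.57 FPKM in *ice1-2*, against 3.98, 1.36 and 1.64 FPKM in Col-0. ATMG00690 had 0.604, 2.08 and 2.29 FPKM in *ice1-2*, against 1.66, 1.48 and 1.09 FPKM in Col-0, with the smallest fold change of the 38 genes (0.07, SE 0.37, limma adjusted p = 0.927), which turned below 0 when *ice1-2* B, *ice1-2* C or Col-0 C was left out and with median-ratio scaling. *ice1-2* A was at 0 for ATMG00665, which reached 2.02 and 1.78 FPKM in *ice1-2* B and C, against 0.674, 0.808 and 1.05 FPKM in Col-0.

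In 5 of the 38 genes every *ice1-2* library lay above every Col-0 library, and in none did every one lie below. Over all genes tested, 19.8% lay wholly above and 7.39% wholly below, so the share above among the mitochondrial genes, 13.2%, was no higher than the background. The 5 genes are named because of this separation, after their values were seen. ATMG01220, annotated as an unknown protein, had 1.24, 2.04 and 1.65 FPKM in *ice1-2*, against 0.362, 0.790 and 0.389 FPKM in Col-0 (log2 fold change 1.09, SE 0.28, limma adjusted p = 0.0812). It passed the filter through its *ice1-2* libraries alone, as each Col-0 value lay below 1 FPKM. The filter thus favoured this direction, and its separation is no support for a difference. ATMG00660 had 3.95, 6.83 and 3.58 FPKM in *ice1-2*, against 2.02, 2.35 and 2.14 FPKM in Col-0 (log2 fold change 0.94, SE 0.26, limma adjusted p = 0.0927). ATMG00110 had 1.58, 1.26 and 1.72 FPKM in *ice1-2*, against 1.21, 0.715 and 0.910 FPKM in Col-0, which was the narrowest range of the 37 genes above 0 in each library, 2.41 times. The last 2 genes, ATMG09450 and ATMG09730, cannot be counted as separate results, because their values differed by at most 0.312% of the highest value in any library. ATMG09450 had 6.11, 10.3 and 10.01 FPKM in *ice1-2*, against 5.88, 3.15 and 3.52 FPKM in Col-0 (log2 fold change 1.00, SE 0.28, limma adjusted p = 0.0997). A further 4 pairs of identifiers, all with means below 1 FPKM, had values equal to within 2% in every library.

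The largest estimates belonged to other genes. ATMG00510 had 10.5, 2.29 and 5.29 FPKM in *ice1-2* A, B and C, against 0.421, 6.85 and 1.28 FPKM in the Col-0 libraries, with a log2 fold change of 1.29 (SE 0.74, limma adjusted p = 0.348). ATMG00650 followed ATMG01390 with 13.8, 3.09 and 5.24 FPKM in *ice1-2*, against 2.25, 3.98 and 1.59 FPKM in Col-0 (log2 fold change 1.17, SE 0.49, limma adjusted p = 0.214). In both genes *ice1-2* A was the highest library, and Col-0 B lay above *ice1-2* B, so the genotypes overlapped. ATMG00080, next in order, had 16.9, 6.35 and 7.09 FPKM in *ice1-2*, against 2.61, 7.60 and 2.78 FPKM in Col-0. ATMG01130, which the reference does not name, had 10.4, 1.99 and 4.74 FPKM in *ice1-2*, against 1.61, 6.58 and 2.41 FPKM in Col-0 (log2 fold change 0.57, SE 0.58, limma adjusted p = 0.603). At the top its libraries had the order of the 3 highest genes, with *ice1-2* A highest and Col-0 B next.

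The remaining 12 genes that passed the filter are given by identifier or as an unknown protein. In all 12 *ice1-2* A was the highest library and the genotypes overlapped, with log2 fold changes from 0.55 for ATMG00516 to 1.08 for ATMG00070 and limma adjusted p-values from 0.247 to 0.587. ATMG00516 had 18.04, 4.21 and 8.65 FPKM in *ice1-2* A, B and C, against 3.57, 9.42 and 5.81 FPKM in Col-0 A, B and C. ATMG01120 had 21.9, 2.47 and 5.38 FPKM in *ice1-2*, against 1.11, 7.81 and 4.22 FPKM in Col-0. In both genes Col-0 B lay above *ice1-2* B and *ice1-2* C.

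Of the 114 genes below the filter, 113 were above 0 in at least 1 library and were fitted without the filter. The estimates of 88 lay above 0 and of 25 below, with a median of 0.15, where the median over all 27825 genes fitted in this way was 0.10. None had an adjusted p under 0.05 in limma, and 4 had an unadjusted p under 0.05, all higher in *ice1-2* (3.54%, against 7.26% of all genes below the filter). Over the 151 mitochondrial genes fitted without the filter, 126 lay above 0 (83.4%, against 62.4% of all genes so fitted). Every *ice1-2* library lay above every Col-0 library in 11 of them (7.28%, against 16.2% of all genes) and below in 0 (against 6.52%). ATMG01270, annotated as ribosomal protein S7, was 1 of the 11, with 0.921, 0.518 and 0.430 FPKM in *ice1-2*, against 0.156, 0.298 and 0.329 FPKM in Col-0. ATMG01090, annotated as ATP synthase 9, was the highest gene below the filter, with 3.07, 1.41 and 0.912 FPKM in *ice1-2*, against 0.886, 0.735 and 0.394 FPKM in Col-0.

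The levels of the chromosome 2 copies were set beside those of the mitochondrial genes. Of the 55 nuclear loci whose notes name a mitochondrial identifier, 46 were in the expression table. Among the 11 genes with the same coding letters in both genomes, 6 had a mean of at least 1 FPKM, and for these the mean of the copy was 0.752 to 1.07 times that of the mitochondrial gene. Other copies differed more from their mitochondrial gene, such as 1.85 times for ATMG00730, whose copy is also identical in its coding letters, 0.153 times for ATMG01220 and 3.05 times for ATMG00400. AT2G07675, the copy of *rps12*, had 9.98, 15.3 and 15.5 FPKM in *ice1-2* A, B and C, against 2.73, 21.0 and 6.52 FPKM in Col-0 A, B and C. AT2G07751, the copy of *nad3*, had 6.48, 5.36 and 10.4 FPKM in *ice1-2*, against 1.67, 12.9 and 4.16 FPKM in Col-0. Both copies had the library order of their mitochondrial genes at their ends, with Col-0 A lowest and Col-0 B highest.

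The copy of *atp9* was the exception. AT2G07671 had 7.09, 7.05 and 9.70 FPKM in *ice1-2* A, B and C, against 0.636, 10.6 and 0.370 FPKM in Col-0 A, B and C, while ATMG01080 had 4.04 and 4.69 FPKM in Col-0 A and C. In these 2 Col-0 libraries alone the copy lay far below the mitochondrial gene. The copy is annotated over a longer stretch of chromosome 2 than its coding part (chr2:3251566-3252341, minus strand). Of the 46 copies 9 passed the filter, and all 9 had estimates above 0, where 65.2% of all genes tested did. None reached an adjusted p under 0.05 in limma. At an unadjusted p under 0.05 there was 1, higher in *ice1-2*, where 16.2% of all genes tested were higher. The sources used here do not say how reads that match both places were counted, so the levels of these genes are uncertain as to genome.

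**Figure D4:**
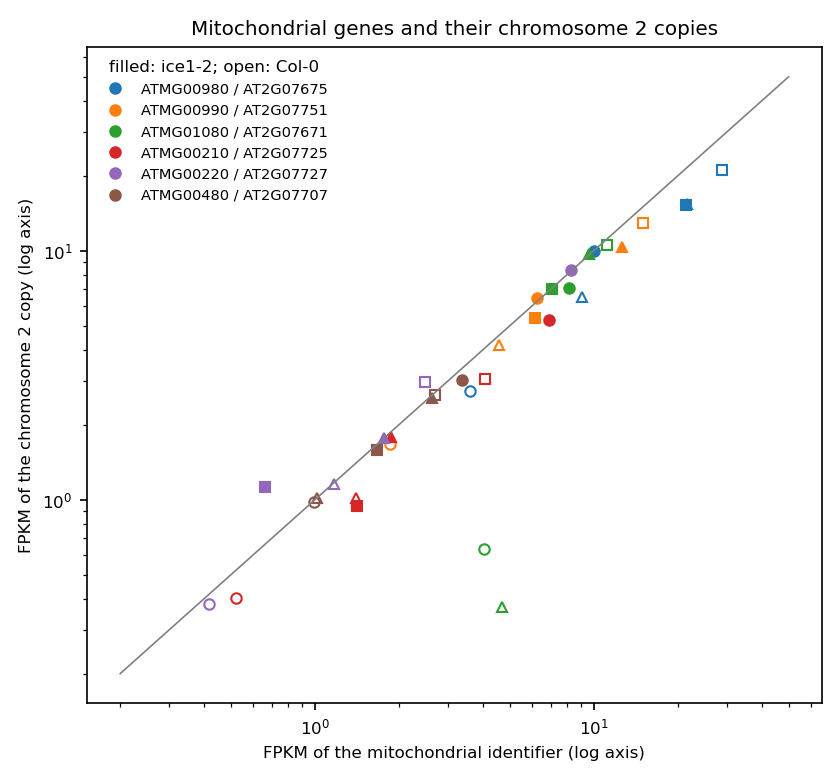
FPKM of the 6 mitochondrial identifiers with a mean of at least 1 FPKM whose coding sequence is identical on chromosome 2 (x axis, log) against FPKM of the copy (y axis, log), 1 point per library, filled for *ice1-2* and open for Col-0, circle A, square B and triangle C. Most points lie near the line of equal values, and the copy of ATMG01080 in Col-0 A and Col-0 C lies farthest below it, at 0.636 and 0.370 FPKM.

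Nuclear genes of mitochondrial function were read from the same fit, and no gene of the 4 lists reached an adjusted p under 0.05. Of all genes tested, 1.62% were higher and 0.27% lower at that limit, and 16.2% and 5.26% at an unadjusted p under 0.05. Estimates lay above 0 for 65.2% of all genes tested, with a median of 0.15. Of the 35 genes of the nuclear respiratory chain list 34 were tested, and 33 of these had estimates above 0. None reached an adjusted p under 0.05 in either direction (4 had an unadjusted p under 0.05, all higher in *ice1-2*), with a median log2 fold change of 0.31. Their sum ranged from 2368 to 3029 FPKM in *ice1-2* and from 2124 to 2417 FPKM in Col-0, a far smaller spread than that of the mitochondrial genes. The ratio of the mitochondrial sum to the sum of this list was 2.30, 0.408 and 0.558 in *ice1-2* A, B and C, against 0.261, 1.02 and 0.400 in Col-0 (exact permutation p = 0.5). The 3 highest genes of the list were *CYTC-1*, which encodes cytochrome c, with a mean of 173 FPKM over the 6 libraries, AT4G37830, annotated as a cytochrome c oxidase-like protein, with 168 FPKM, and AT5G08670, annotated as an ATP synthase subunit family member, with 126 FPKM.

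Of the alternative pathway genes, which bypass the phosphorylating chain, 10 of 13 were tested, and 6 of these had estimates above 0. None reached an adjusted p under 0.05 in limma (1 had an unadjusted p under 0.05), with a median of 0.04 on the log2 scale. The highest were *PUMP1*, an uncoupling protein, with 58.0 FPKM, *NDB3* with 21.8 FPKM and *NDB2* with 17.8 FPKM, both NAD(P)H dehydrogenases. Of the genes that express, edit, splice or maintain the mitochondrial genome 19 of 25 were tested, and 14 of these had estimates above 0. None was at an adjusted p under 0.05 and none at an unadjusted p under 0.05, with a median of 0.08. *RPS10*, a nuclear gene of the mitochondrial ribosome, and the RNA helicases *PMH2* and *PMH1* were the highest of them, at 12.7, 11.4 and 7.35 FPKM. Of the mitochondrial stress genes 8 of 9 were tested, and 5 of these had estimates above 0. None was at an adjusted p under 0.05 (1 at an unadjusted p under 0.05), with a median of 0.07. AT5G09570, annotated as a Cox19-like protein, was the highest at 79.5 FPKM, followed by *NAC017*, a transcription factor of mitochondrial signalling, at 25.4 FPKM. *NDB2* is on this list as well.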

How the data were processed

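Anther RNA of *ice1-2* and Col-0 (3 libraries each) was analysed from the 6 deposited FPKM tables, with no column left out (0 columns not used). The authors trimmed paired 100-base reads with Trim Galore, mapped them to TAIR10 with TopHat2, assembled transcripts with StringTie and Cufflinks-CuffMerge, counted reads per gene with HTSEQ v.0.6.0 and deposited FPKM. Reads are paired by the study's methods, while the labels call them both single-end and paired-end. How RNA was selected, its strand and the treatment of reads with several matches: not given in the sources used here. Low values were within 0.05 of whole steps in 26.7% to 52.6% of cases, at the best of many step sizes tried. The share by chance is 10% for a single fixed step and is not known for the best of many. Read counts were not recovered, and the depth is unknown.

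Genes that reached an FPKM of 1 in 3 or more libraries were fitted with limma 3.58.1 (R 4.3.3, trend) on log2(FPKM + 0.5), all 6 libraries, no covariate. Fold changes are on that scale, which understates changes of low genes. Benjamini-Hochberg adjustment covered all genes tested, and the call limits follow the study's. Single values per library were compared with two-sided exact permutation tests on log2 values. Alternatives covered pseudocounts of 0.1 and 1, no filter, scaling, library weights, a replicate block and leaving out each library.

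The members were taken by identifier alone, but earlier results of these data were known when this set and the lists were chosen. Named are genes of the listed role groups, of other ATMG genes the 5 highest and up to 5 called per direction, of each nuclear list up to 4 per direction or, where none passed, the 3 highest, and *ICE1*. The groups behind this rule also hold identifiers that the reference does not annotate. Roles are stated only where it annotates them, apart from the ribosomal RNA group, which rests on the lists alone. Sums by role hold only annotated group members, so annotated genes outside the groups are left out. Coordinates and sequences are from NCBI RefSeq, TAIR10.1, whose mitochondrial sequence may differ from that of the authors' build.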

Additional observations from a re-analysis of the deposited data

How the results depend on the processing

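With library quality weights 4 mitochondrial genes and 1 alternative pathway gene were called or passed, against 0 of each as reported, and leaving out 1 library gave 0 to 3 mitochondrial genes. The count of calls over all genes moved far more: 335 as reported, 28 without the filter, 163 with median-ratio scaling, 803 with weights, 15 to 628 without 1 library and 0 without *ice1-2* A and Col-0 B together, which was chosen after seeing the data. The median of the mitochondrial genes kept its direction in every alternative run (0.23 without the filter, 0.50 to 1.27 without 1 library, 0.67 with median-ratio scaling, which moved the median of all genes to -0.02). The deviations of same-letter libraries had correlations of -0.21 for A, 0.05 for B and 0.12 for C, which cannot decide whether the letters pair them. No *ice1-2* library correlated best with its own letter, but Col-0 C correlated best with *ice1-2* C. With the replicate block 0 mitochondrial genes were called, and 35 genes in all.

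Divided by the nuclear ribosomal RNA sum, an alternative chosen after seeing the data, the log2 difference of *ice1-2* over Col-0 turned to -0.37 for the mitochondrial share, -0.61 for complex I, -0.42 for complex III, -0.72 for ATP synthase, -0.50 for cytochrome c maturation and -0.46 for ribosomal proteins, while complex IV stayed above 0 at 0.23; the cause was not tested. Leaving out the listed ribosomal RNA group (ATMG00020, ATMG01380 and ATMG01390) with the nuclear ribosomal RNA genes gave 0.99 for the share. Genes with no annotated chromosome 2 copy gave 1.00. These alternatives were not run for the role groups, which hold none of these identifiers and only genes with such a copy. Complex III and complex IV stand for 1 gene each here. Without 1 library the log2 fold change ranged from -0.0340 to 1.43 for ATMG00220, from -0.00472 to 0.84 for ATMG00665, from -0.0824 to 1.28 for ATMG00990, from -0.10 to 1.28 for ATMG01000, from -0.0774 to 1.01 for ATMG01320, from -0.17 to 0.50 for ATMG00690, from -0.12 to 0.14 for *PUMP1* (AT3G54110), from -0.18 to 0.00852 for *NDB2* (AT4G05020) and from -0.19 to 0.28 for AT5G09570. The values below 0 came without Col-0 A for ATMG00665, ATMG00990, ATMG01000 and ATMG01320, without *ice1-2* A for ATMG00220 and ATMG01320, and without *ice1-2* B, *ice1-2* C or Col-0 C for ATMG00690. ATMG00665 was -0.34 with a pseudocount of 0.1 and -0.0609 with median-ratio scaling, which gave -0.0744 for ATMG00690, -0.17 for *PUMP1*, -0.00386 for *PMH2* (AT3G22330) and -0.12 for AT5G09570. ATMG01320 was -0.21 with weights, and *NDB2* 0.0523 without *ice1-2* A and Col-0 B. None of these passed the threshold in either direction. With 3 libraries per genotype and no read counts, limits on detection follow from the spread between libraries alone.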
